A study of Homo sapiens with 7 samples.

Results

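The globin genes of the human genome were followed by RNA sequencing through the development of dasatinib resistance in K562 cells. All 10 genes were taken by name from the deposited table of 25702 genes, namely HBZ, HBM, HBA2, HBA1 and HBQ1 of the alpha-like cluster and HBE1, HBG2, HBG1, HBD and HBB of the beta-like cluster. They were taken as a gene family by name, although earlier results of these data were known. K562 is an established chronic myeloid leukemia line, labelled an erythroblast, that carries the BCR::ABL1 fusion, and DasR lines are K562 cells adapted to rising doses of the tyrosine kinase inhibitor dasatinib in long-term culture. The early stage comprised DasR lines at 10, 15 and 25 nM, and the late stage DasR lines at 50 and 200 nM. A drug naive line and a line grown with the vehicle DMSO were the controls. All 7 lines share the K562 background. The study describes a kinase domain mutation in its 25, 50 and 200 nM intermediates, of which the 25 nM line is in the early stage. It also reports a gain of BCR::ABL1 copies and transcript, and overexpression of the transporter gene ABCG2, which rose and then fell with dose. The mutation and these changes were not analysed here. The study also describes mixed cell populations within intermediates, so that a line need not be 1 clone. Each line gave 1 library. Lines of different dose therefore stood in for replicates, and p-values measured only the spread between them. The study describes samples taken in sequence during a dose escalation, so the DasR lines are successive stages and not independently derived. The stages were chosen by the study from a clustering of these same libraries. Libraries held 21007761 counts in the drug naive line, 24037893 in the DMSO line, 27808639, 27844799 and 20059656 at 10, 15 and 25 nM, and 20827519 and 21588772 at 50 and 200 nM.

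Hemoglobin is assembled from paired alpha-like and beta-like chains around heme, and the balance of the chains matters because an excess of either is harmful to the red cell. Within each cluster the genes lie in the order in which they are used in development. HBZ and HBE1 encode the embryonic chains, HBG1 and HBG2 the fetal gamma chains, HBA1 and HBA2 the alpha chain of fetal and adult life, HBB the major and HBD the minor adult beta-like chain, while HBM and HBQ1 encode chains whose part in hemoglobin is unclear. K562 cells are known for making embryonic and fetal hemoglobin, for holding little adult beta chain, and for raising hemoglobin when they are pushed toward the erythroid fate.

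The alpha-like genes lie on the forward strand of chromosome 16 in GRCh37, the assembly also called hg19, which the authors used. HBZ lies at chr16:202643-204502, HBM at chr16:215977-216763, HBA2 at chr16:222875-223709, HBA1 at chr16:226679-227521 and HBQ1 at chr16:230458-231178. The beta-like genes lie on the reverse strand of chromosome 11, with HBE1 at chr11:5289575-5291175, HBG2 at chr11:5274418-5276011, HBG1 at chr11:5269499-5271087, HBD at chr11:5254068-5255713 and HBB at chr11:5246694-5248301. Each canonical transcript has 3 exons. HBA1 and HBA2 are near-identical, and 406 of the 503 windows of 75 bases (the read length) in the HBA1 transcript, 80.7%, also occur in that of HBA2. For HBG1, 313 of 513 windows, 61.0%, occur in HBG2. How shared reads were divided is not given in the sources used here, so the division within each pair is uncertain. Whether strand was used in counting is likewise not given, and reads from an overlapping or antisense transcript could not be told apart.

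Promoter sequences were found for 2 of the 10 genes, HBD and HBM, in the RefSeq table for GRCh38.p14. They are shown as the globin promoters found there, and stand for a minor adult gene that was higher in every early stage line and a gene with almost no counts. Each runs 250 bases up to the base before the start site, 5′ to 3′ along the gene, and capitals mark matches, on either strand, to the motif CCAAT, to the motif CACCC, to the motif AGATAA, and to the motifs ATAAA and also TATAA.
HBD: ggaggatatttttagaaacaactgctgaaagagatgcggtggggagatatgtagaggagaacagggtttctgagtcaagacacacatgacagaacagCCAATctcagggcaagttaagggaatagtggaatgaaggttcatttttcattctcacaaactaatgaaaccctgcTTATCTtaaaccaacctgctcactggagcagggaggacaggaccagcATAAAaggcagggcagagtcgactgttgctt
HBM: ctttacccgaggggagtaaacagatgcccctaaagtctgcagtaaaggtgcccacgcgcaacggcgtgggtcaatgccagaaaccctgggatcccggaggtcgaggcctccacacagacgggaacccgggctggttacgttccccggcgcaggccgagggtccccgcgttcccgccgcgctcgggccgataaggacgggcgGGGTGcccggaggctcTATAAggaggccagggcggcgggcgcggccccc
The HBD stretch lies at chr11:5234484-5234733 on the reverse strand and the HBM stretch at chr16:165728-165977 on the forward strand. In HBD, CCAAT stood 153 to 149 bases before the start, AGATAA on the opposite strand (TTATCT as printed) 78 to 73 bases before it and ATAAA 31 to 27 bases before it. HBM had CACCC on the opposite strand (GGGTG as printed) 49 to 45 bases before the start and TATAA 33 to 29 bases before it. No 2 of these matches overlapped. CCAAT, bound by NF-Y, was found in 32.0% of all 35116 promoters of the same length, CACCC, the core bound by KLF factors, in 54.7%, AGATAA, bound by GATA factors, in 9.17%, and, of the TATA-like motifs, ATAAA in 32.7% and the motif TATAA in 18.9%. A match is a description of the letters and not a binding site.

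Globin RNA was a small part of every library and was highest in the early stage lines. The 10 genes together took 0.291% of the drug naive counts and 0.263% of the DMSO counts, 0.989%, 1.14% and 0.847% at 10, 15 and 25 nM, and 0.507% and 0.333% at 50 and 200 nM, with 95% Wilson intervals that cover counting error only and reach at most from 1.13% to 1.14% in the 15 nM line. No early stage line overlapped a control or late stage line. The alpha-like sum differed more between these lines than the beta-like sum. It was 233 and 448 CPM (counts scaled to a common library total) in the drug naive and DMSO lines, 4380, 5577 and 4326 CPM at 10, 15 and 25 nM, and 1807 and 409 CPM at 50 and 200 nM. The beta-like sum was 2681 and 2187 CPM for controls, 5507, 5786 and 4146 CPM for early stage lines, and 3267 and 2924 CPM for late stage lines. The early stage lines thus carried alpha-like and beta-like RNA in similar amounts, where the controls and the 200 nM line carried mostly beta-like RNA.

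**Figure D1:**
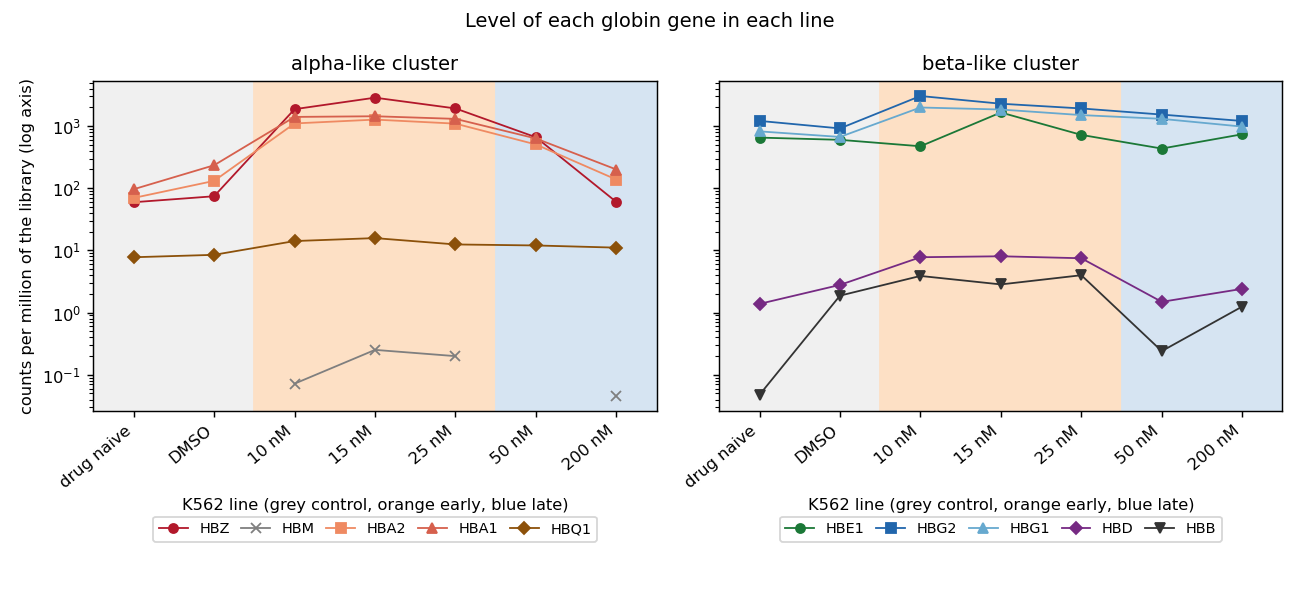
Level of each globin gene in each of the 7 K562 lines, in CPM on a log axis, with the alpha-like cluster on the left and the beta-like cluster on the right; grey, orange and blue bands mark control, early stage and late stage lines, 1 library each, and a line at 0 counts has no point. HBZ goes from 59.5 and 74.3 CPM in the controls to between 1865 and 2856 CPM in the early stage lines and is back at 60.0 CPM in the 200 nM line, while HBE1 shows no such shape.

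Because the genes differ in length, the levels of single genes were ranked in RPKM, which is CPM per kilobase of transcript. Cluster sums in CPM and shares of cluster counts take no account of length. In RPKM the ratio of the alpha-like to the beta-like cluster was 0.0924 and 0.221 in the drug naive and DMSO lines, 0.808, 1.04 and 1.09 at 10, 15 and 25 nM, and 0.569 and 0.149 at 50 and 200 nM. The 200 nM line lay between the controls, and the 50 nM line lay between the early stage lines and the controls. In the controls the fetal genes led, with HBG2 at 1821 ± 356 RPKM (SD, n = 2), HBG1 at 1274 ± 185, HBE1 at 767 ± 44.7, HBA1 at 287 ± 169, HBA2 at 166 ± 71.8 and HBZ at 114 ± 17.7 RPKM. By these deposited lengths the control ranges of HBA1, HBA2 and HBZ overlapped from each gene to the next in this order, while those of HBG2, HBG1 and HBE1 did not. By canonical transcript lengths HBZ, at 74.6 and 93.1 RPKM in the drug naive and DMSO lines, no longer overlapped HBA2, at 121 and 228 RPKM. Among the early stage lines HBG2 was at 4138 ± 981 RPKM (SD, n = 3), followed by HBZ at 3757 ± 947, HBG1 at 3040 ± 428, HBA1 at 2395 ± 119, HBA2 at 1907 ± 164 and HBE1 at 1161 ± 761 RPKM. The range of HBZ in the early stage lines overlapped those of both HBG2 and HBG1, and its place depended on the length used. With the canonical transcript, of 798 bases against the deposited 589, an alternative added after the values were seen, HBZ was at 2773 RPKM and HBG1 at 3024 RPKM in the early stage lines, which put HBZ below HBG1. In the 15 nM line HBZ was at 4850 RPKM and HBG2 at 3916 RPKM by the deposited lengths, and at 3579 and 3896 RPKM by the canonical ones, so that the order turned. The cluster ratio by canonical lengths was 0.717, 0.856 and 0.941 at 10, 15 and 25 nM.

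HBZ, the embryonic alpha-like gene, had the highest early stage log2 fold change of the 7 genes tested at 10 CPM. Its level was 59.5 and 74.3 CPM in the drug naive and DMSO lines, 1865, 2856 and 1917 CPM at 10, 15 and 25 nM, 659 CPM at 50 nM and 60.0 CPM at 200 nM. Every early stage line was far above both controls, the 50 nM line stood between them, and the 200 nM line was within the control range. The mean was 66.9 ± 10.4 CPM (SD, n = 2) for controls and 2213 ± 558 CPM (SD, n = 3) for early stage lines, and the fitted log2 fold change was 5.03 with a standard error of 0.98. In edgeR's quasi-likelihood test, adjusted by Benjamini-Hochberg over 10452 genes, this had an FDR of 0.00604, just short of the threshold of 0.005 that the study set. That fit of all 7 libraries takes in the spread of the late stage lines too. With only the early stage and control lines fitted, the log2 fold change was 5.04 with a standard error of 0.25 (FDR 0.000105). There 2079 of the 10452 genes were called.

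HBA1 and HBA2, which encode the same alpha chain, were higher in each early stage line than in either control. HBA1 was at 96.3 and 234 CPM in the drug naive and DMSO lines, 1401, 1436 and 1303 CPM at 10, 15 and 25 nM, and 630 and 199.8 CPM at 50 and 200 nM. HBA2 was at 69.7 and 131 CPM, 1100, 1268 and 1093 CPM, and 505 and 138 CPM in the same order. The early stage lines lay close together for both genes, whereas of the controls the DMSO line was the higher for both, and the 200 nM line was near the DMSO line. Both genes rose in the early stage lines, HBA2 by 3.51 on the log2 scale (standard error 0.57, FDR 0.00307) and HBA1 by 3.06 (standard error 0.56, FDR 0.00469). With the reads of the near-identical genes summed, the alpha pair changed by 3.25 (FDR 0.00383).

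The remaining alpha-like genes were low. HBQ1 was at 7.76 and 8.49 CPM in the drug naive and DMSO lines, 14.1, 15.8 and 12.5 CPM at 10, 15 and 25 nM, and 12.003 and 11.1 CPM at 50 and 200 nM. All 5 DasR lines were above both controls, and with the limit lowered to 1 CPM, which every line passed, the early stage log2 fold change was 0.79 (standard error 0.15, FDR 0.00682). HBM had 0 counts in both controls and at 50 nM, 2, 7 and 4 counts at 10, 15 and 25 nM and 1 count at 200 nM. A count of 0 allows up to 3 counts, which is 0.143 CPM in the drug naive line and 0.125 CPM in the DMSO line, and the 15 nM line reached 0.251 CPM, so that HBM was at most barely detected.

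HBG1 and HBG2, the fetal gamma genes, were the most abundant beta-like genes in the controls, and their early stage log2 fold changes were below those of HBZ, HBA2 and HBA1 and above that of HBQ1. HBG1 was at 820 and 667 CPM in the drug naive and DMSO lines, 1986, 1842 and 1499 CPM at 10, 15 and 25 nM, and 1304 and 978 CPM at 50 and 200 nM. HBG2 was at 1208 and 915 CPM, 3038, 2283 and 1916 CPM, and 1527 and 1205 CPM in the same order. For both genes each early stage line lay above the controls and above the late stage lines, and the 10 nM line was the highest. HBG1 rose in the early stage lines by 1.24 on the log2 scale (standard error 0.19, FDR 0.00240), and HBG2 differed by 1.17 (standard error 0.23, FDR 0.00658). Summed, the gamma pair rose by 1.195 (FDR 0.00396).

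HBE1, the embryonic beta-like gene, stood apart from the others. Its level was 651 and 599.7 CPM in the drug naive and DMSO lines, 473, 1651 and 720.0 CPM at 10, 15 and 25 nM, and 434 and 737 CPM at 50 and 200 nM. The 15 nM line alone was well above the rest, and the 10 nM line was below both controls. Early stage and control lines overlapped, and the log2 fold change of 0.58 (standard error 0.49) had an FDR of 0.362 and became -0.083 without the 15 nM line. The embryonic genes of the 2 clusters therefore followed different courses, with HBZ at 27.9, 42.7 and 28.7 times its control mean at 10, 15 and 25 nM and HBE1 at 0.755, 2.64 and 1.15 times.

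The adult genes HBD and HBB were low in every line. HBD had 29 and 67 counts in the drug naive and DMSO lines, 216, 224 and 150 counts at 10, 15 and 25 nM, and 31 and 52 counts at 50 and 200 nM, or 2.08 ± 0.995 CPM (SD, n = 2) in the controls, 7.76 ± 0.283 CPM (SD, n = 3) in the early stage and 1.95 ± 0.651 CPM (SD, n = 2) in the late stage lines. The early stage lines were above all others. HBB had 1 drug naive and 45 DMSO counts, 108, 79 and 80 counts at 10, 15 and 25 nM, and 5 and 27 counts at 50 and 200 nM. The controls thus differed by a CPM ratio of 39.3, with an exact counting interval from 6.71 to 1587. Neither gene reached 10 CPM in any line, so both were tested only with lower limits. With 1 CPM in at least 2 libraries, among 14899 genes, the early stage log2 fold changes were 1.89 for HBD (standard error 0.34, FDR 0.00502) and 1.87 for HBB (standard error 0.97, FDR 0.163), so that neither was called at 0.005, where 14.3% of the genes of this fit were. With no filter beyond 1 count, among 22776 genes, HBD was called (FDR 0.00236) and HBB was not (FDR 0.138), where 12.1% were. Per length HBB stayed far below HBG2, with 5.68 ± 1.01 RPKM (SD, n = 3) in the early stage lines against 4138 RPKM.

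Of the 10 globin genes, 7 passed the limit of 10 CPM in at least 2 libraries, and HBM, HBB and HBD did not. Since HBQ1 reached 10 CPM only in DasR lines, its passing depended on where it was high, and it is left out of the counts against the controls. Between early stage and control lines, 3 of the other 6 rose at an FDR of 0.005 (HBA1, HBA2 and HBG1) and none fell, and among all 10452 genes 18% were called, and 7.92% of the 10452 were called higher. At an FDR of 0.05, 5 of the 6 were called, all higher, where 46.5% of all genes were called and 22.6% were higher. The median log2 fold change of the 6 was 2.15, and that of all genes tested was 0.00307. Each call at 0.005 rested on nearly every library: HBA1 and HBA2 lost it without any 1 control or early stage line (FDRs up to 0.0364 and 0.0322), HBG1 without any 1 of these but the 25 nM line (up to 0.0195), and the number of globin calls without 1 library ranged from 0 (without either control or the 10 or 15 nM line) to 4 (without either late stage line, where HBZ was added with an FDR of 0.000113). Calls among all genes fell as well, from 1881 to 1111, 889 and 535 without the 10, 15 and 25 nM line. Whether globin genes lost calls to the same degree as other genes was not tested. For 5 of the 6, all but HBE1, every early stage line lay above both controls, an order found for 35.9% of all genes.

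**Figure D2:**
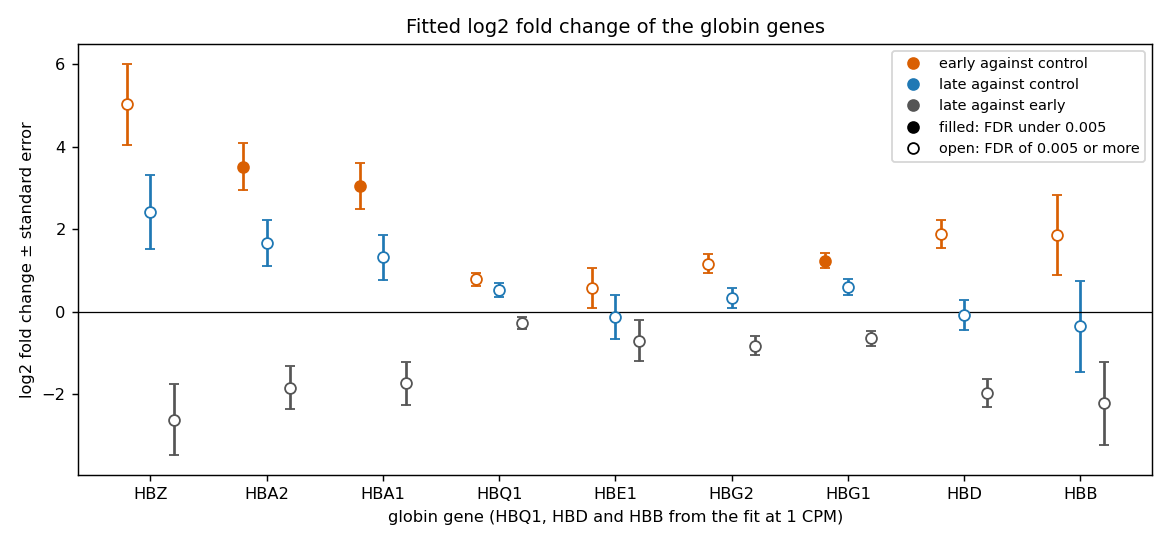
Log2 fold change of 9 globin genes with its standard error, for early stage against control (orange), late stage against control (blue) and late against early stage (grey) from edgeR; filled points have an FDR under 0.005, and HBQ1, HBD and HBB come from the fit with the lower limit of 1 CPM. The filled points are HBA2, HBA1 and HBG1 in the early stage, and HBZ has the highest value, 5.03, with a standard error of 0.98.

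The late stage lines were compared with the same 2 controls. Log2 fold changes were 2.42 for HBZ (standard error 0.90, FDR 0.0744), 1.67 for HBA2 (0.55, FDR 0.0529), 1.32 for HBA1 (0.55, FDR 0.1000), 0.59 for HBG1 (0.20, FDR 0.0539), 0.34 for HBG2 (0.25, FDR 0.318) and -0.12 for HBE1 (0.53, FDR 0.879), and, with the limit of 1 CPM, 0.52 for HBQ1 (0.17, FDR 0.0535). None of the other 6 was called by edgeR's fit at the limit of 10 CPM at 0.005, where 7.98% of all genes were, and none at 0.05, where 33.9% were. Other fits called some at 0.05. HBG1 was called with the limit of 1 CPM (FDR 0.0469, among 4307 genes) and with scaling to library totals alone (FDR 0.0395, among 3465). DESeq2 called HBG1 (FDR 0.00625) and HBA2 (FDR 0.0334) among 3942 genes. With no filter, edgeR called HBG1, HBA2 and HBZ among 4126. By unadjusted p, 4 of the 6 were under 0.05, as were 45.9% of all genes, and none was called at 0.005 by DESeq2, where 23.9% of all genes were, or by limma voom, where 7.54% were. Without the 50 nM line the value of HBZ turned to -0.19, and without the 200 nM line it was 3.29. In both late stage lines HBG1 and HBA2 were above both controls, an order found for 34.3% of all genes.

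That group joined lines with very different globin levels. HBZ was 659 CPM at 50 nM and 60.0 CPM at 200 nM, and the late stage SD of 424 CPM exceeded its mean of 359.7 CPM. The lines were therefore also fitted one by one, an alternative chosen after their values were seen. With 1 library each, the log2 differences are given without a test. Against the controls the 50 nM line differed by 3.29 for HBZ, 2.33 for HBA2, 1.93 for HBA1, 0.79 for HBG1, 0.55 for HBQ1, 0.51 for HBG2 and -0.54 for HBE1. The 200 nM line differed by no more than 0.43, the value of HBA2, with HBZ at -0.18. Between 200 and 50 nM HBZ differed by -3.48.

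Late stage lines were below early stage lines for 8 of the 9 genes that reached 1 CPM, all but HBE1, where 27.9% of all genes showed that order. Log2 fold changes were -2.62 for HBZ (FDR 0.0856), -1.85 for HBA2 (FDR 0.0594), -1.73 for HBA1 (FDR 0.0680), -0.83 for HBG2 (FDR 0.0568), -0.64 for HBG1 (FDR 0.0602) and -0.70 for HBE1 (FDR 0.357). At the lower limit of 1 CPM, HBD differed by -1.97 (FDR 0.0210), HBB by -2.22 (FDR 0.179) and HBQ1 by -0.27 (FDR 0.266). By edgeR 0% of all genes, and thus no globin gene, passed 0.005 in this comparison, and 12.7% passed 0.05. By unadjusted p, 5 of the 6 apart from HBQ1 were under 0.05, as were 33% of all genes. DESeq2 called 2 of them at 0.005, HBG1 and HBG2, where it called 10.9% of all genes, and limma voom called none of any genes. At an FDR of 0.05, limma voom called HBZ, HBA2, HBA1, HBG1 and HBG2, among 1366 genes. DESeq2 called the same genes among 2193, and edgeR with no filter called them and HBD among 2056. Without the 50 nM line the log2 differences were -5.22 for HBZ, -3.08 for HBA2 and -2.80 for HBA1. Without the 200 nM line they were -1.74, -1.19 and -1.13 in the same order. Each of these fits leaves 1 late stage line, so the values are given without a test. With all 5 DasR lines as 1 group against the controls, no globin gene was called at 0.005, where 8.08% of all genes were, although 5 of the 6 apart from HBQ1 had an unadjusted p under 0.05, as did 44.2% of all genes.

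**Figure D3:**
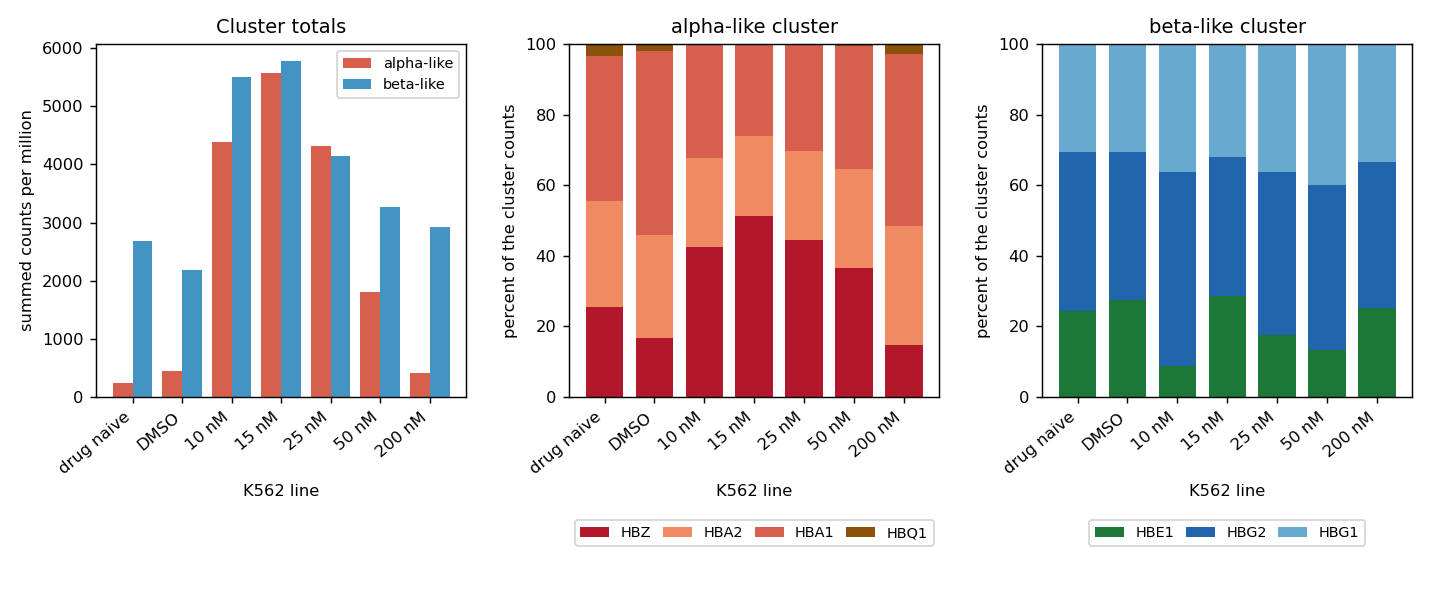
Left, summed CPM of the alpha-like and beta-like clusters in each K562 line; middle and right, the percent of the counts of each cluster taken by each of its genes, where genes that stay under 1% in every line are not drawn. The alpha-like sum runs from 233 CPM in the drug naive line to 5577 CPM at 15 nM, and the HBZ part of it from 14.7% at 200 nM to 51.2% at 15 nM.

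The make-up of the alpha-like cluster shifted toward its embryonic gene. HBZ took 25.5% of the alpha-like counts in the drug naive line (95% Wilson interval 24.3% to 26.7%) and 16.6% in the DMSO line (15.9% to 17.3%). It took 42.6%, 51.2% and 44.3% at 10, 15 and 25 nM, and 36.5% and 14.7% (14.0% to 15.4%) at 50 and 200 nM. Early stage lines and controls did not overlap, and the 200 nM line was below both controls. The share of HBA1 moved the other way, with 46.8% ± 7.77 (SD, n = 2) in the controls and 29.3% ± 3.20 (SD, n = 3) in the early stage lines.

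In the beta-like cluster the shares of HBE1 and HBG2 varied widely among the early stage lines. HBE1 took 24.3% and 27.4% of the beta-like counts of the drug naive and DMSO lines, 8.58%, 28.5% and 17.4% at 10, 15 and 25 nM, and 13.3% and 25.2% at 50 and 200 nM. The 10 nM and 15 nM lines, both of the early stage, were thus the lowest and the highest of all 7. HBG2 took 55.2% at 10 nM and 39.5% at 15 nM, while HBG1 stayed between 30.5% and 39.9% in every line and was higher in all 5 DasR lines than in the controls. Together HBD and HBB took under 1% in each line, so that the adult share of the cluster stayed small.

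Some of the genes that flank the clusters also changed. At the alpha-like locus, where the main distal enhancers lie within introns of NPRL3, 9 of 12 listed neighbors were tested and 2 rose at 0.005 in the early stage lines, where 7.92% of all genes did. NPRL3 had 109 and 112 CPM (drug naive, DMSO), 189.8, 185 and 156 CPM in the early stage and 148 and 129 CPM for late stage lines, and rose by 0.66 on the log2 scale (FDR 0.00397). SNRNP25, a component of the minor spliceosome, rose by 0.95 (FDR 0.00179). At 0.05, 7 of the 9 were higher, where 22.6% of all genes were, and 1, FAM234A, lower (-0.58), and the median log2 fold change was 0.55. In the late stage 0 of the 9 were called by edgeR at 0.005, where 7.98% of all genes were, and 6 had an unadjusted p under 0.05, where 45.9% did.

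At the beta-like locus, which is set among olfactory receptor and TRIM genes, 8 of 17 listed neighbors were tested. Of these, OR51B2 passed the limit of 10 CPM only through the DasR lines and TRIM6 only through the controls, so both are given from the fit at 1 CPM, which they passed in every line and where 14.3% of all genes were called in the early and 5.55% in the late stage. OR51B2, an olfactory receptor gene beyond HBE1, was at 4.57 and 6.37 CPM for controls, 13.2, 18.9 and 14.9 CPM for early stage and 12.8 and 12.5 CPM for late stage lines, and rose by 1.506 in the early stage (FDR 0.00211). TRIM6, an antiviral ubiquitin ligase, fell from 30.8 and 17.6 CPM in the controls to between 2.19 and 3.52 CPM in the DasR lines, with log2 values of -3.08 in the early stage (FDR 0.000626) and -2.84 in the late stage (FDR 0.00229). Of the other 6, STIM1, a calcium sensor, fell in the early stage, with a log2 value of -0.77 (FDR 0.000708), the 1 called at 0.005, where 10.1% of all genes fell. HBBP1, the pseudogene between HBD and HBG1, was highest in the late stage lines, where HBD and HBG1 were below their early stage levels, with 7.33 and 8.94 CPM for controls, 10.5, 12.9 and 11.3 CPM for early stage and 14.8 and 23.7 CPM for late stage lines. From the fit at 1 CPM its log2 fold changes were 0.497 in the early stage (FDR 0.114) and 1.25 in the late stage (FDR 0.0104). HBAP1, HBZP1 and BGLT3 were not analysed here. The globin relatives outside the clusters, MB, CYGB, NGB and ADGB, were under 1 CPM in every line.

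**Figure D4:**
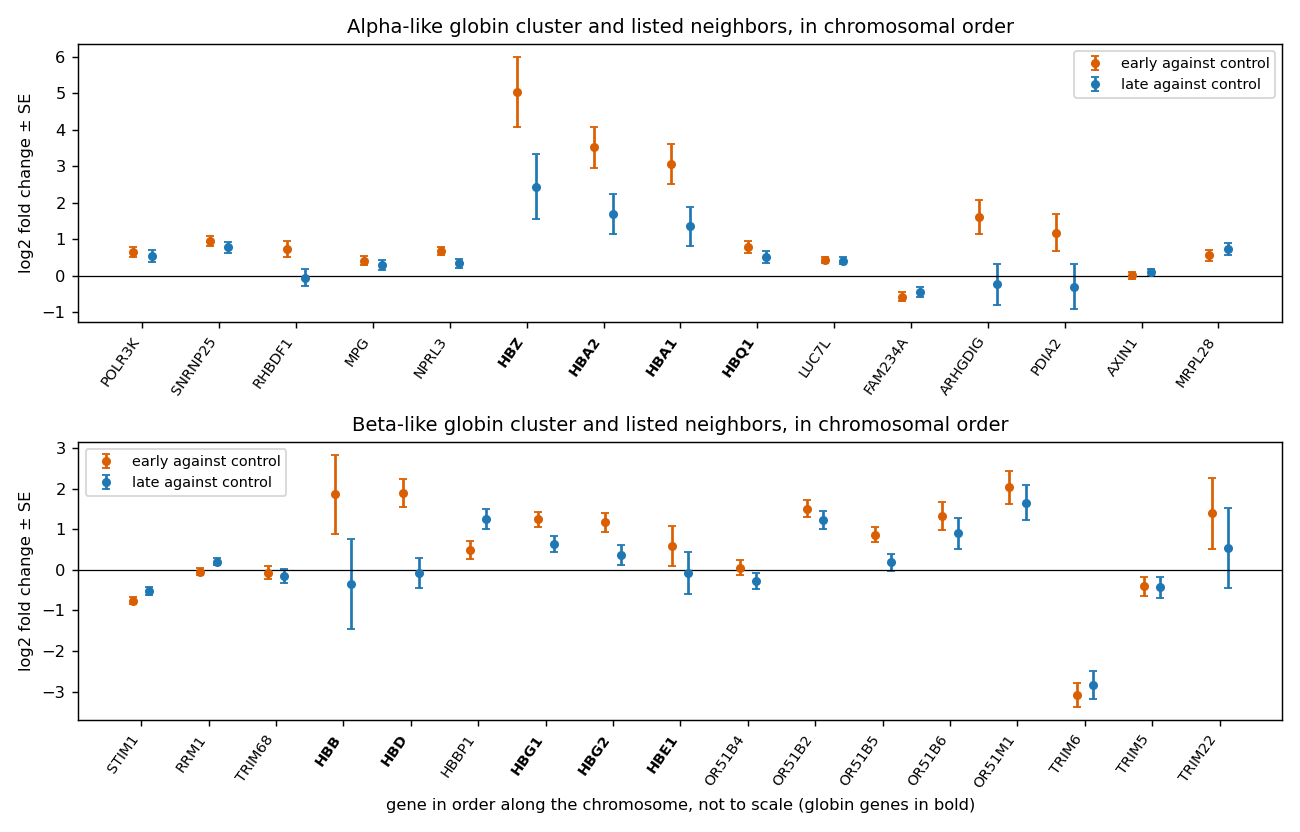
Log2 fold change with its standard error of the globin genes (bold) and their listed neighbors, in chromosomal order and not to scale, for early stage (orange) and late stage (blue) against control, from the edgeR fit with the limit of 1 CPM. HBZ, HBA2 and HBA1 stand above their neighbors at the alpha-like locus, and TRIM6 is the lowest at the beta-like locus.

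Some activators of globin transcription rose in the early stage lines. Of 12 listed, all were tested, and 3 rose at 0.005 in the early stage lines, where 7.92% of all genes did, namely LMO2 by 1.09 (FDR 0.000762), ZFPM1 by 1.06 (FDR 0.00209) and MAFK by 0.96 (FDR 0.00142). At 0.05, 7 of the 12 were higher and none lower, where 22.6% of all genes were higher. LMO2 bridges DNA-binding factors in erythroid complexes, ZFPM1 is the GATA1 cofactor FOG1, and MAFK is the small Maf partner of NFE2. LMO2 was at 39.8 and 40.7 CPM in the drug naive and DMSO lines, 90.2, 75.02 and 95.1 CPM at 10, 15 and 25 nM, and 99.1 and 106 CPM at 50 and 200 nM, so that all 5 DasR lines were above both controls. In the late stage 2 of the 12 rose at 0.005, LMO2 by 1.33 (FDR 0.000989) and ZFPM1 by 1.51 (FDR 0.00141), where 3.42% of all genes did. KLF1, an activator of adult beta globin, had a log2 fold change of 0.66 in the early stage (FDR 0.00565), TAL1 of 0.57 (FDR 0.0232) and NFE2 of 0.17 (FDR 0.172). GATA1, the main erythroid transcription factor, was at 201 and 217 CPM for controls, 165, 206 and 191 CPM for early stage and 235 and 295 CPM for late stage lines, and was not called in either (log2 fold changes of -0.18 and 0.32).

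Of 30 listed repressors and switching factors, 29 were tested, and 1 rose and 1 fell at 0.005 in the early stage lines, where 18% of all genes were called. NFIX, a repressor of gamma globin, rose by 0.74 (FDR 0.00412), and HBS1L, next to MYB at a locus tied to fetal hemoglobin, had a log2 fold change of -0.53 (FDR 0.00458). With the limit of 1 CPM, the fit plotted for these lists, neither was called (FDR 0.00512 and 0.00608). MYB, a progenitor factor whose loss raises fetal globin, was at 395 and 362 CPM for controls, 221, 112 and 157 CPM for early stage and 243 and 294 CPM for late stage lines. All 5 DasR lines were below both controls, and the early stage log2 fold change of -1.23 had an FDR of 0.00734. BCL11A, the best known silencer of gamma globin, was at 0.240 CPM or less in every line. HIC2, which represses BCL11A, was at 299.98 and 285 CPM for controls, 691, 794 and 698 CPM for early stage and 481 and 203 CPM for late stage lines, a course that was lowest at 200 nM, with an early stage log2 fold change of 1.30 (FDR 0.0153). LIN28B, which marks the fetal program, had log2 fold changes of 0.22 in the early and 0.53 in the late stage (FDR 0.194 and 0.0268), and ZBTB7A, the other main gamma silencer, 0.32 and 0.52 (FDR 0.0621 and 0.0226).

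**Figure D5:**
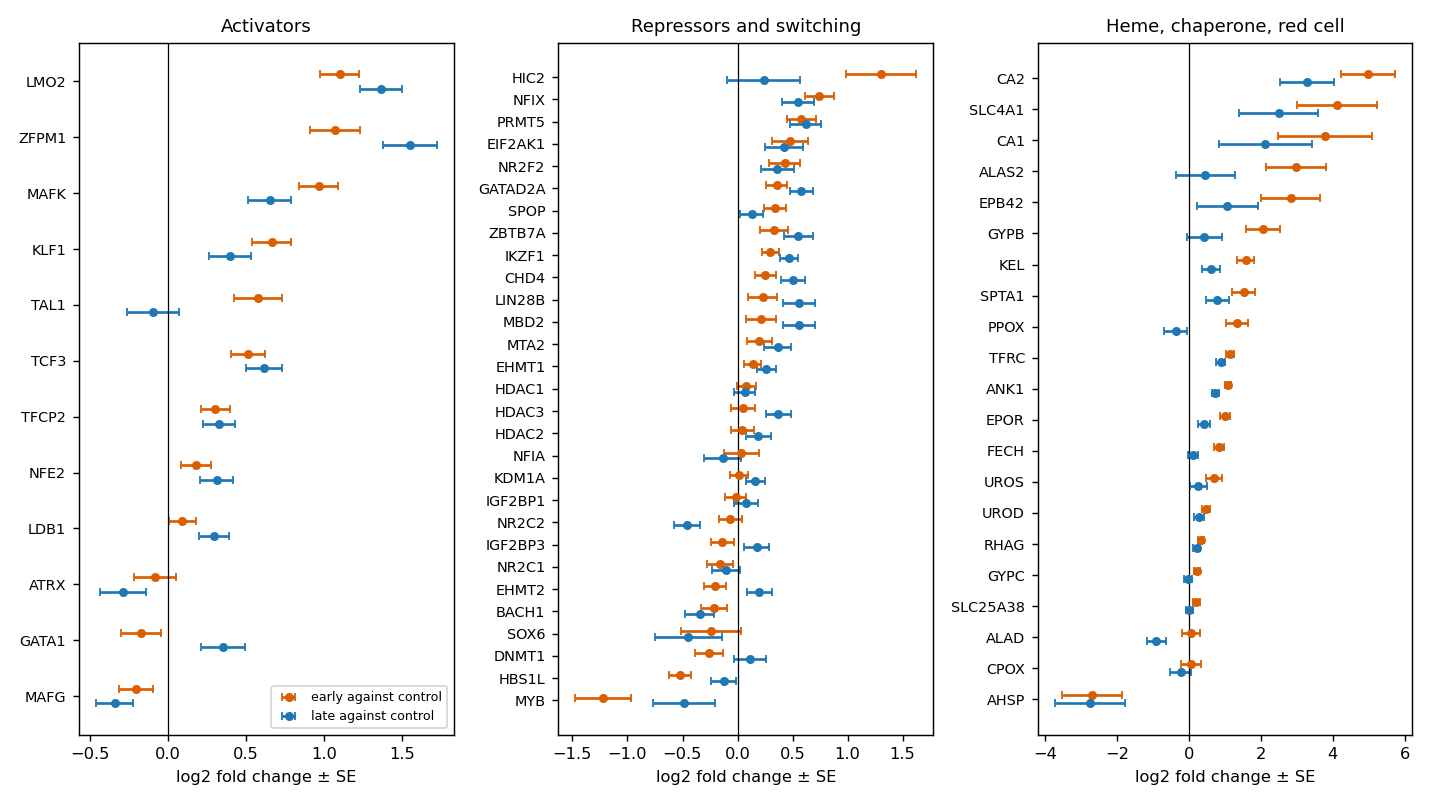
Log2 fold change with its standard error of listed activators of globin genes (left), of repressors and switching factors (middle) and of heme synthesis, chaperone and red cell genes (right), for early stage (orange) and late stage (blue) against control, from the edgeR fit with the limit of 1 CPM. CA2 is the highest on the right, AHSP the lowest there, and MYB is the lowest in the middle. CA2 passed the limit only through DasR lines and AHSP only through the controls, so both are drawn without a test.

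Of the heme synthesis genes FECH rose in the early stage lines, and the alpha chain chaperone AHSP was low in every line. Of 10 partners 8 were tested, and 1 rose at 0.005, where 7.92% of all genes did. This was FECH, which encodes the last enzyme of the pathway, by 0.82 (FDR 0.00362). ALAS2, the erythroid enzyme of the committed step, was at 58.9 and 40.9 CPM in the drug naive and DMSO lines, 377, 514 and 300.2 CPM at 10, 15 and 25 nM, 124 CPM at 50 nM and 12.2 CPM at 200 nM, and its early stage difference was 2.97 on the log2 scale (standard error 0.86, FDR 0.0255). The 200 nM line was below both controls. At 0.05, 5 of the 8 were higher in the early stage, against 22.6% of all genes. Between late and early stage none of the 8 was called by edgeR at 0.005, 5 had an unadjusted p under 0.05, against 33% of all genes, and 3 (FECH, PPOX and ALAD) were lower at 0.05, where 6.1% of all genes were. AHSP, which binds and steadies free alpha chain, was at 1.95 and 2.29 CPM in the controls and 0.539 CPM or less in every DasR line. It exceeded 1 CPM only in the controls, where it was high, so its early stage log2 fold change of -2.70 is given without a test.

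Red cell markers were checked because the cells are labelled erythroblasts. Of 12 markers 11 were tested, of which the carbonic anhydrases CA1 and CA2 and the anion exchanger SLC4A1 passed the limit only through DasR lines and are left out of the counts. Of the other 8, 4 rose at 0.005 in the early stage lines, where 7.92% of all genes did, namely the transferrin receptor TFRC by 1.13, the membrane skeleton gene ANK1 by 1.08, the erythropoietin receptor EPOR by 0.99 and the blood group gene KEL by 1.57. CA2 was at 0.714 and 0.874 CPM for controls, 24.6, 33.2 and 18.8 CPM for early stage and 12.9 and 2.501 CPM for late stage lines, given without a test. In the late stage TFRC rose by 0.85 and ANK1 by 0.70, the 2 of the 8 called there, where 3.42% of all genes rose. At 0.05, 7 of the 8 were higher and none lower in the early stage, against 22.6% of all genes higher. The 12 markers summed to 1741 and 1625 CPM for controls, 3708, 3528 and 3365 CPM for early stage, and 2847 and 2327 CPM for late stage lines. Erythroid markers were thus present in every line, while HBB and AHSP, which erythroblasts of adult marrow hold in abundance, were almost absent. In bulk RNA, fewer cells that make a transcript and less of it per cell cannot be told apart.

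Markers of other blood lineages were low and mixed in direction. The 10 megakaryocyte markers summed to 80.5 and 64.3 CPM for controls, 60.2, 20.7 and 30.8 CPM for early stage and 82.9 and 114 CPM for late stage lines, with GP1BB at 0 in every line and 6 under 1 CPM throughout. The most abundant of them, ITGA2B, the integrin of platelets, fell in the early stage lines (log2 value -2.44, FDR 0.00234) and had a late stage value of 0.40 (FDR 0.465). VWF, the von Willebrand factor gene and the other one tested, was at 0.666 and 0.291 CPM for controls, 36.97, 3.88 and 7.93 CPM for early stage and 13.8 and 6.67 CPM for late stage lines, and, since it passed the limit only through DasR lines, is given without a test. The 9 granulocyte and monocyte markers, led by LYZ, summed to 97.0 and 85.4 CPM, 127, 39.6 and 63.5 CPM, and 135 and 139.98 CPM in the same order, with MPO and ELANE at 0.125 CPM or less in every line. The 5 lymphocyte markers, led by CD3D, summed to 24.6 and 18.6 CPM, 8.59, 7.65 and 13.01 CPM, and 26.6 and 33.6 CPM. The 5 stromal markers, led by COL1A1, stayed between 5.93 and 19.8 CPM. The part of any of these in the globin values was not tested.

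For the gene of each cluster with the most counts summed over all 7 lines, the genes with the most similar profile over the 7 lines were listed, as a description of lines that share their groups and with no test. For HBZ the 5 nearest by Pearson correlation of log2 CPM were ESPN (0.999), FGFR1 (0.998), FAM89B (0.997), ZFTA (0.996) and PAGE2B (0.995), and 642 of the tested genes exceeded 0.9. ESPN, an actin-bundling gene, was at 3.19 and 3.37 CPM for controls, 92.8, 115 and 75.4 CPM for early stage and 31.5 and 3.10 CPM for late stage lines. FGFR1, a receptor tyrosine kinase, was at 0.904 and 1.08 CPM, 40.1, 56.4 and 44.6 CPM, and 15.1 and 1.204 CPM. At 200 nM ESPN was below both controls and FGFR1 slightly above them. For HBG2 the nearest were CITED2 (0.985), GAB1 (0.981), FUBP3 (0.979), IQGAP2 (0.978) and DYRK3 (0.974), and 193 genes exceeded 0.9. CITED2, a transcriptional coregulator, was at 64.4 and 58.5 CPM, 193, 138 and 125 CPM, and 98.8 and 79.6 CPM in the same order, highest like HBG2 in the 10 nM line.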

How the data were processed

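RNA of 7 K562 lines was sequenced as 75-base read pairs from libraries depleted of ribosomal and non-coding RNA, with a kit that keeps strand. The authors aligned the pairs to hg19, and the deposited values are unnormalized read counts for each gene. Per the labels featureCounts was among the tools. The deposited tables of fold changes, p-values and FDR values for early and late stage against control hold the study's own comparisons, and their values were not used, apart from gene symbols and lengths.

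The quasi-likelihood test of edgeR 4.0.16 (R 4.3.3) was fitted after TMM scaling to all 7 libraries, each group having its own coefficient. It covered the 10452 genes that reached 10 CPM in 2 or more libraries, and Benjamini-Hochberg FDRs over all of them were called under 0.005. DESeq2 1.42.0 and limma 3.58.1 were alternatives. Levels were CPM of the library total and, for RPKM, per kilobase of the deposited length or, for HBM, HBB and HBD, of the canonical transcript. Functions were tested on simulated data. Lines of 1 group differed by more than sampling noise (chi-square per degree of freedom from 21.1 to 70.1). A count of 0 was taken to allow 3 counts. The members and gene lists were chosen with earlier results of these data known. Named genes were the members, the list genes called at 0.005, a fixed set of regulators and partners (GATA1, KLF1, BCL11A, ZBTB7A, MYB, NFE2, TAL1, LIN28B, AHSP, ALAS2, NPRL3), and the 5 genes whose log2 CPM was most like that of the member of each cluster with the highest summed count. Every other list gene the text names, HIC2, FAM234A, HBBP1, PPOX and ALAD among them, was chosen after its values were seen. A gene of the partner list and a gene of the red cell list are not reported here. Positions are those of canonical GENCODE transcripts. Symbols matched 23696 of 25702 IDs in RefSeq.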

Additional observations from a re-analysis of the deposited data

How the results depend on the processing

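The number of globin genes called in the early stage, 3, became 6 with DESeq2 and 6 at an FDR of 0.05, both with HBQ1, 5 with limma voom and 6, with HBD and without HBQ1, with no filter on low counts, and ranged from 0 to 4 without 1 library. The late stage number, 0, ranged from 0 to 1 and the late against early number, 0, from 0 to 1 without 1 library, and DESeq2 gave 2 for the latter. Of all genes, the early stage number, 1881, became 3548 with DESeq2 and 4865 at 0.05 and ranged from 208 to 2066 without 1 library. The late stage number, 834, became 2503 with DESeq2, 1287 with no filter, 257 with only the groups compared and 3542 at 0.05, and ranged from 33 to 596. The late against early number, 0, became 1135 with DESeq2, 295 with no filter and 1328 at 0.05, and ranged from 0 to 198. Direction reversed for HBE1 in the early stage (-0.083 without the 15 nM line, to 0.90 without the 10 nM line) and in the late stage (0.20 without the 50 nM line, to -0.54 without the 200 nM line), and for HBZ in the late stage (-0.19 without the 50 nM line, to 3.29 without the 200 nM line), and only the last of these was called, on the assumption that the lone late stage line varies like the other groups. HBZ in the early stage passed 0.005 with DESeq2, with limma voom (FDR 0.00313) and with only the groups compared (FDR 0.000105). Of all genes, limma voom called 1918 of 10452 in the early stage, and edgeR with no filter called 2762 of 22776. Per kilobase, control shares became 28.8% for HBA2 (29.6% by counts), 19.97% for HBE1 (25.9%), 32.96% for HBG1 (30.6%) and 46.9% for HBG2 (43.5%). These shares divide the same counts by gene length. The deposited lengths were 816 bases for HBE1, 583 for HBG2, 584 for HBG1, 605 for HBA2 and 576 for HBA1. The cause of the other moves above was not tested. Other scalings moved the median of all genes by at most 0.018 on the log2 scale. No paired analysis was possible because the lines carry no shared replicate numbers. With 1 library per line, no value of a single line has an error beyond counting.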
